A study of Mus musculus with 32 samples.

Results

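The surrogate light chain genes of the mouse are Igll1, Vpreb1, Vpreb2 and Vpreb3, and every HA-Ikaros, CHD4 and H3K27ac peak within 50 kb of a transcription start site (TSS) of these 4 genes was taken from the 24 peak lists. The window held 263 peaks, which merged into 51 regions: 17 of 23856 Ikaros regions, 12 of 15358 CHD4 regions and 22 of 39309 H3K27ac regions. The 4 genes are 4 of 21911 protein-coding genes and lie at 3 loci. Chromatin came from B3, a mouse pre-B cell line (1 line, so no independent animals), transduced by retrovirus with HA-tagged Ikaros (IKZF1) fused to ERt2, a domain that keeps the protein out of the nucleus until 4-hydroxytamoxifen (4-OHT) is added. All groups carried this construct. Cells had no treatment (0 h) or 500 nM 4-OHT for 30 min, 1 h or 2 h, with 2 replicates per time and target. The experiment asks how early Ikaros binding bears on CHD4 recruitment and H3K27 acetylation. Nothing in the labels says that replicates were separate cultures, so p-values measure only the spread between these libraries, which may be technical.

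Igll1 (lambda 5) and Vpreb1 or Vpreb2 form the surrogate light chain, which pairs with the immunoglobulin mu heavy chain before a light chain gene has been rearranged. The resulting pre-B cell receptor drives the expansion of large pre-B cells and is then shut off. Vpreb3 is a related protein that binds free heavy chains inside the cell. Ikaros is a zinc finger factor needed for lymphocyte development, CHD4 is the ATPase of the NuRD corepressor complex, and H3K27ac marks active promoters and enhancers. The pre-B label was checked on 25 genes of pre-B cell receptor signalling and early B cell transcription: 22 of them had an H3K27ac peak within 1 kb of a TSS in both 0 h libraries, Ikzf3 in 1, and Spib and Ikzf1 in 0. Such a peak in both libraries was found at 44.4% of 21911 protein-coding genes, and the count describes these genes without identifying the cell type.

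Coordinates are mm10 (GRCm38) and genes are from GENCODE M21. Igll1 (ENSMUSG00000075370.12, chr16:16860671-16863985, minus strand) and Vpreb1 (ENSMUSG00000059305.12, chr16:16868403-16870843, minus strand) share a locus, with 5270 bp between their coding TSSs. The distal of the 3 annotated Vpreb1 TSSs lies inside the overlap with Top3b, a topoisomerase gene on the opposite strand. Vpreb2 (ENSMUSG00000059280.4, chr16:17980428-17981273, plus strand) lies 1111173 bp further along the same chromosome. Vpreb3 (ENSMUSG00000000903.3, chr10:75943057-75949657, plus strand) is on another chromosome, beside Gm867, Chchd10 and Mmp11. A peak called from the fragments of either Vpreb1 or Vpreb2 has to be read with care: their coding transcripts were identical at 822 of 846 aligned bases (97.2%), and 40.1% of the 41-base words of Vpreb1, the read length of the study, occurred in Vpreb2. The treatment of reads that map to both is not given in the sources used here.

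Of the Ikaros regions at the Igll1-Vpreb1 locus, 4 were called in both replicates of at least 1 time after 4-OHT, and 3 of their summits are shown here because the binding results turn on them. Each shows the summit base of the library with the highest fold and 50 bases on either side, from the GRCm38.p6 plus strand. Capitals mark GGAA or GGGA (TTCC or TCCC on the other strand), short words of the kind Ikaros zinc fingers bind, counted separately where they overlap (GGGAA holds GGGA and GGAA).
Igll1 3′ flank (chr16:16856412-16856512, intergenic, 7523 bp downstream of the Igll1 TSS): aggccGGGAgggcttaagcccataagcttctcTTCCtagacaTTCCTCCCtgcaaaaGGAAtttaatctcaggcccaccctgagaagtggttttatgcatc
Igll1 promoter (chr16:16864185-16864285, intergenic, 250 bp upstream of the Igll1 TSS): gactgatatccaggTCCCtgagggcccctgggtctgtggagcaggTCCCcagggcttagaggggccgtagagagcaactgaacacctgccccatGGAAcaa
Ppm1f promoter (chr16:16896083-16896183, intergenic): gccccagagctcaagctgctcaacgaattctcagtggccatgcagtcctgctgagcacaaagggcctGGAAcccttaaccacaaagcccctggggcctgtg
These windows held 5, 3 and 1 words in this order, and the fourth window, at the Vpreb1-Top3b summit (chr16:16870850-16870950, untranslated region of Top3b), held 7, beside a median of 3 over all 23856 Ikaros regions and of 4 over the 2305 called in all 8 Ikaros libraries. The Vpreb1-Top3b window, the richest of the 4, held 1 GGGAA or TTCCC, which 39.5% of all Ikaros regions hold. The Igll1 promoter window held 0, although its region had the highest Ikaros fold of the 17. The window with the most words was thus not the one with the highest fold.

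RefSeq promoters (GRCm38.p6, 250 bases before to 50 bases after the start, gene strand) were found for all 4 genes and are shown for the same words.
Igll1 (chr16:16863936-16864235): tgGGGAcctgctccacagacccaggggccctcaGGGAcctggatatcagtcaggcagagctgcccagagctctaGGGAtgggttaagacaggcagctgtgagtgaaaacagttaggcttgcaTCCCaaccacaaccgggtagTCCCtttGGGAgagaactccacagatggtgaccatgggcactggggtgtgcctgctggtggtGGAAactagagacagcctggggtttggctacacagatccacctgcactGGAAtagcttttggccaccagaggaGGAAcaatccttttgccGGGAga
Vpreb1 (chr16:16869206-16869505): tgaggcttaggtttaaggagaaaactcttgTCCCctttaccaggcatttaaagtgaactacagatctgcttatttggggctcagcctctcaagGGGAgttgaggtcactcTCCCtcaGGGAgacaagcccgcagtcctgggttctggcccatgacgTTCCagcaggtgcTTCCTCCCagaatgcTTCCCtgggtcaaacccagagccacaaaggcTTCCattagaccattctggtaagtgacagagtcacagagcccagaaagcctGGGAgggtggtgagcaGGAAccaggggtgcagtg
Vpreb2 (chr16:17980315-17980614): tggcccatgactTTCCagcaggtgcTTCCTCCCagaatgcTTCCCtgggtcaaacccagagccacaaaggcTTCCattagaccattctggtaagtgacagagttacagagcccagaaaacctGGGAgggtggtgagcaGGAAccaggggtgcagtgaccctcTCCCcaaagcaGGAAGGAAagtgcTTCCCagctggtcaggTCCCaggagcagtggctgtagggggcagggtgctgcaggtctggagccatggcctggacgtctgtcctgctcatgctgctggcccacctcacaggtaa
Vpreb3 (chr10:75948050-75948349): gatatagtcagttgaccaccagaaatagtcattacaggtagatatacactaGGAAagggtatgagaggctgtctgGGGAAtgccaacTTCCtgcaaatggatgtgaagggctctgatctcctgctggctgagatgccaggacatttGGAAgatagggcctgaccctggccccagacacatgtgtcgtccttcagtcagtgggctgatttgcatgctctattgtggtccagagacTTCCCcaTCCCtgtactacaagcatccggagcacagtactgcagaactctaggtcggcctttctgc
The promoters held 10, 12, 14 and 8 words, beside a median of 7 over 32851 promoters of this length. GGGAA or TTCCC occurred 0, 1, 2 and 2 times, and 62.7% of all promoters hold at least 1. For Vpreb2 the RefSeq start lies downstream of the TSS used elsewhere here (chr16:17980428), so its window reaches further into the gene than the others. The Vpreb1 and Vpreb2 windows are offset along one shared sequence, with 153 of 156 aligned bases identical. A word is a description of the sequence, not a bound site.

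H3K27ac covered the Igll1-Vpreb1 locus as 1 domain of 21578 bp (chr16:16853883-16875460) that ran from the 3′ flank of Igll1 over both genes into Top3b. In 0 h replicate 1 its peak of 20920 bp was exceeded by none of the 25095 in the list, and in the 2 h lists its longest peak stood at the 99.9 percentile of length. Its summit lay between -1083 and 312 bp from the Igll1 TSS in every library. The value of a region here is the highest fold enrichment over local background, as deposited, among its peaks in a library. The domain had a fold of 57.9 and 29.5 at 0 h, 49.2 and 30.2 at 30 min, 27.5 and 20.9 at 1 h, and 19.1 and 19.6 at 2 h. Every 0 h and 30 min library stood above every 1 h and 2 h library, and the 0 h replicates differed most from each other.

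**Figure D1:**
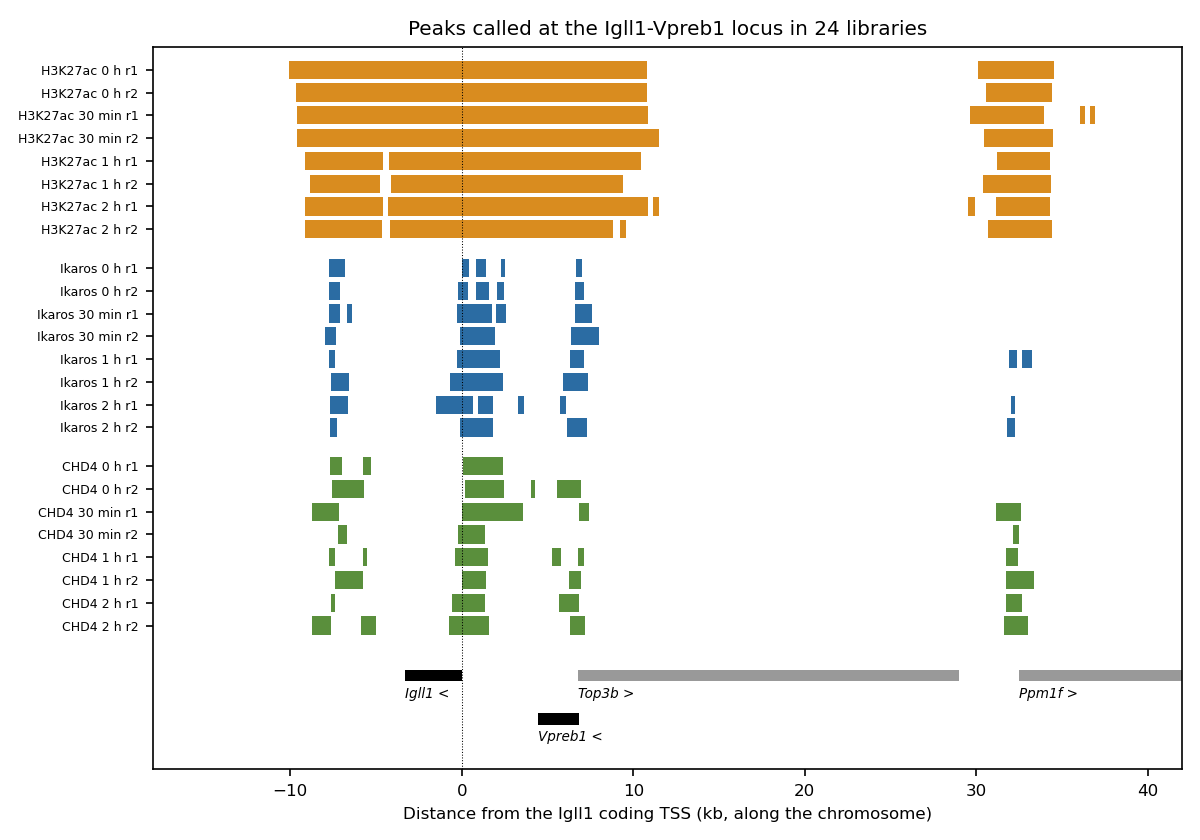
Peaks at the Igll1-Vpreb1 locus, with distance from the Igll1 coding TSS in kb on the horizontal axis and 1 line per library (r1 and r2 are the replicates); bars are called peaks and the lowest lines are genes, black for members, with < and > for strand. H3K27ac formed 1 peak in the 4 libraries of 0 h and 30 min, and within it the Ikaros and CHD4 regions called in at least 6 libraries fell at the same 3 places. CHD4 was also called in 6 libraries at the Ppm1f promoter, outside the domain.

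The H3K27ac domain was a single peak in all 4 libraries of 0 h and 30 min and at least 2 peaks in all 4 of 1 h and 2 h. The gap shared by the 4 later lists was 288 bp (chr16:16859394-16859681, intergenic), 990 bp beyond the 3′ end of Igll1. Bases covered went from 20920 and 20463 bp at 0 h to 20046 and 17889 bp at 2 h, so the break took little of the length. This pattern was looked for after it had been seen. It was met by 70 of 9121 H3K27ac regions that were 1 peak in all 4 early lists (0.767%), and by 5 of the 19 that were 10 kb or longer (26.3%), so among long domains it was not rare.

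The fold divides the fragments at the summit by a local background that differs between libraries. The summit pileup itself was recovered from fold and p and divided by the mean coverage of the library, which gives how many times the average base a summit was covered. On this scale the Igll1-Vpreb1 domain stood at 74.6 and 60.2 at 0 h, 63.4 and 39.1 at 30 min, 35.9 and 30.7 at 1 h, and 28.3 and 26.1 at 2 h. The mean was 67.4 ± 10.1 at 0 h and 27.2 ± 1.53 at 2 h (SD, n = 2), with no overlap between 0 h and either 1 h or 2 h. Part of this was shared by the whole series: the library median of log2 pileup over all regions tested changed by -0.47 from 0 h to 2 h (mean of 2 libraries each), and that of log2 fold by -0.46. Changes below are log2 differences beyond that median, tested with limma over all regions called in all 8 libraries of a target, with Benjamini-Hochberg adjustment.

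Of the 22 H3K27ac regions, 10 were called in all 8 libraries and could be tested, 8 were called in 1 library and 4 in 2 to 7. By fold, 0 of the 10 passed an adjusted p of 0.05 at 2 h, where 0.238% of 14716 regions were called lower and 0.190% higher, and 2338 had an unadjusted p below 0.05. The domain had a log2 change of -0.63 (SE 0.287, adjusted p = 0.297). The test had little reach here: in a simulation with the spread of these libraries it found 11% of changes of 1 log2 unit. By pileup per coverage, 4 of the 10 were lower at 2 h and 0 were higher, where 7.10% of 14571 regions were lower and 11.1% higher. At 1 h, 3 of the 10 were lower by pileup, beside 6.39% of all regions. That count was 0 without 0 h replicate 1, 1 without 0 h replicate 2 or 1 h replicate 1, and 2 without 1 h replicate 2.

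By pileup, the Igll1-Vpreb1 domain fell by 0.83 at 2 h relative to the median region (SE 0.161, limma adjusted p = 0.00547) and by 0.76 at 1 h (SE 0.161, adjusted p = 0.0108). Of all regions tested, 2.30% had a lower change at 2 h. The Vpreb3 region (chr10:75943880-75952299), which covers the coding TSS and the 3′ end of the gene but not its distal TSS, fell by 0.74 at 2 h (SE 0.153, adjusted p = 0.00776) and by 0.84 at 1 h (adjusted p = 0.00565). The Vpreb2 promoter region (chr16:17978431-17981604) fell by 0.82 at 2 h (SE 0.213, adjusted p = 0.0213) and had -0.24 at 1 h (adjusted p = 0.484). The fourth region (chr10:75934509-75943619) lies over the 5′ end of Mmp11, over Chchd10 and Gm867, and over the 5′ end of Vpreb3 with its distal TSS. Its summit was at -11172 bp from the Vpreb3 TSS, and it fell by 0.62 (SE 0.160, adjusted p = 0.0214). Each of the 4 calls was lost without at least 1 of the 0 h and 2 h libraries. Without 0 h replicate 1 only the Vpreb2 region passed (adjusted p = 0.0451) and the domain missed (0.0574). Without 0 h replicate 2 only the domain passed (adjusted p = 0.0283). Without 2 h replicate 1 the Chchd10-Gm867 region missed (0.116), and without 2 h replicate 2 the Vpreb2 region missed (0.126).

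**Figure D2:**
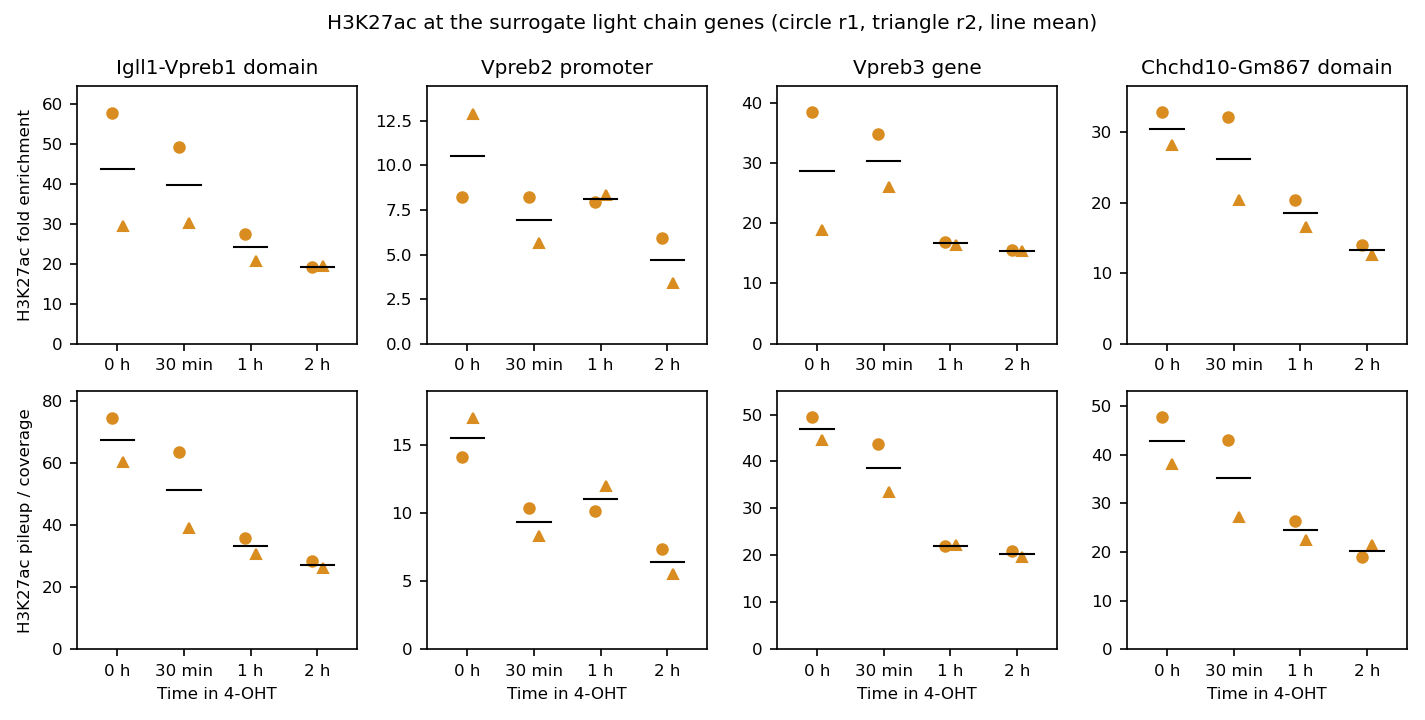
H3K27ac at 4 regions by time in 4-OHT, as fold enrichment (upper row) and summit pileup per coverage (lower row); circles are replicate 1, triangles replicate 2 and lines the mean. In the lower row both 2 h libraries lie under both 0 h libraries in all 4 regions, while in the upper row the 0 h replicates of the Vpreb3 region are 38.4 and 18.8.

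The Vpreb3 region had pileups per coverage of 49.4 and 44.6 at 0 h, 43.7 and 33.5 at 30 min, 21.9 and 22.1 at 1 h, and 21.0 and 19.7 at 2 h. Both 1 h and both 2 h libraries lay below all earlier ones. By fold its 0 h replicates were 38.4 and 18.8, a spread that left a log2 change at 2 h of -0.34 (SE 0.300, adjusted p = 0.623), and of 0.044 without 0 h replicate 1. At the Vpreb2 promoter the pileup per coverage was 14.1 and 17.0 at 0 h, 10.4 and 8.32 at 30 min, 10.1 and 12.0 at 1 h, and 7.33 and 5.49 at 2 h. Vpreb2 thus stood below the regions of Igll1-Vpreb1 and Vpreb3 in every library. Its log2 change by fold was -0.73 (SE 0.350, adjusted p = 0.330).

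**Figure D3:**
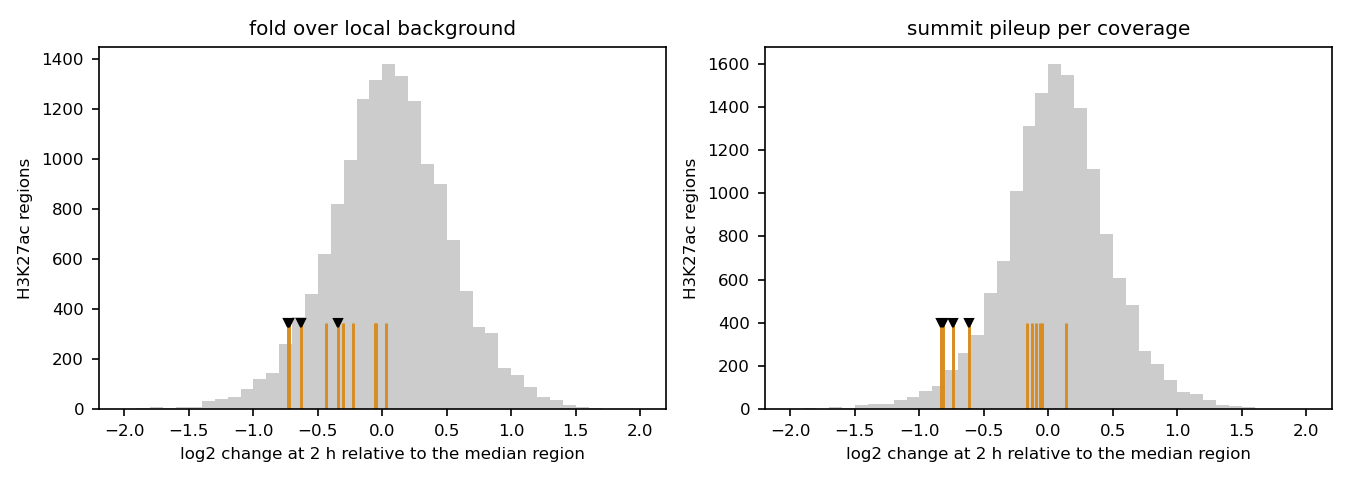
Log2 change in H3K27ac from 0 h to 2 h relative to the median region, as histograms over all regions tested by fold (left) and by pileup per coverage (right); orange lines are the 10 regions near the surrogate light chain genes and black triangles the 4 regions called lower by pileup. The 4 lie between -0.83 and -0.62 by pileup and between -0.73 and -0.34 by fold.

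The other 6 H3K27ac regions tested had log2 changes by pileup between -0.17 and 0.14 at 2 h, and by fold between -0.44 and 0.03, and none passed on either scale. They were the Ppm1f promoter, the Smarcb1 promoter, an Mmp11 region, a region at the start of Gm5134, and 2 intergenic regions upstream of Vpreb2. The Ppm1f promoter (chr16:16893493-16898530), 32484 bp from the Igll1 TSS, had pileups of 31.7 and 28.6 at 0 h and 22.7 and 17.4 at 2 h, a change of -0.13 (adjusted p = 0.636). By fold its change at 2 h was -0.44 (adjusted p = 0.526), a larger one than that of the Vpreb3 region, and by pileup it had -0.48 at 1 h (adjusted p = 0.0843). The intergenic region with its summit at -10948 bp from the Vpreb2 TSS (chr16:17968023-17970645) had -0.52 at 30 min (limma adjusted p = 0.0942), -0.49 at 1 h (adjusted p = 0.0599) and -0.07 at 2 h (adjusted p = 0.807). One small H3K27ac region downstream of Vpreb2 (chr16:17984774-17985470, intergenic) was lost, which means a peak in each 0 h library and no peak at 2 h, with folds of 3.25 and 4.24 at 0 h. That was 1 of 22, and 0 of 22 were gained, beside 2.78% lost and 3.73% gained over all H3K27ac regions.

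Ikaros was found at Igll1 before 4-OHT. The promoter region (chr16:16862504-16866549) had Ikaros folds of 7.25 and 6.16 at 0 h, 12.7 and 6.96 at 30 min, 12.2 and 12.4 at 1 h, and 5.86 and 13.4 at 2 h. Both 1 h libraries stood above both 0 h libraries, whereas the 2 h replicates lay on either side of them. In 2 h replicate 1 the value came from a peak with its summit at -1334 bp from the Igll1 TSS. The summits of the other libraries lay between -273 and -104 bp. The peak over the Igll1 TSS in 2 h replicate 1 had a fold of 5.46. In 2 h replicate 2 the promoter region stood at the 99.7 percentile of Ikaros fold, in 2 h replicate 1 at the 86.3, and at 0 h at the 83.7 and 66.4. Its log2 change was 0.79 at 1 h (SE 0.363, adjusted p = 0.182) and 0.49 at 2 h (SE 0.363, adjusted p = 0.466). By pileup per coverage the values were 10.9 and 17.9 at 0 h and 16.7 and 17.9 at 1 h, and the changes were 0.10 at 1 h and -0.17 at 2 h, so the direction at 2 h depended on the scale.

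The Ikaros region in the 3′ flank of Igll1 (chr16:16856035-16857567) was highest before 4-OHT. Its folds were 8.40 and 8.66 at 0 h, 4.78 and 6.37 at 30 min, 4.83 and 4.82 at 1 h, and 5.20 and 4.76 at 2 h. Every library after 4-OHT lay below both 0 h libraries. The log2 change was -0.91 at 1 h (SE 0.343, adjusted p = 0.0973) and -0.70 at 2 h (SE 0.343, adjusted p = 0.243). By pileup it fell by 0.86 at 1 h (SE 0.244, limma adjusted p = 0.0135), 1 of the 5 regions tested, where 12.3% of 2305 Ikaros regions were lower. The call held without any 1 of 6 libraries and was lost without 0 h replicate 1, without 1 h replicate 1, or without centring on the library median. The difference between this region and the promoter was not tested.

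**Figure D4:**
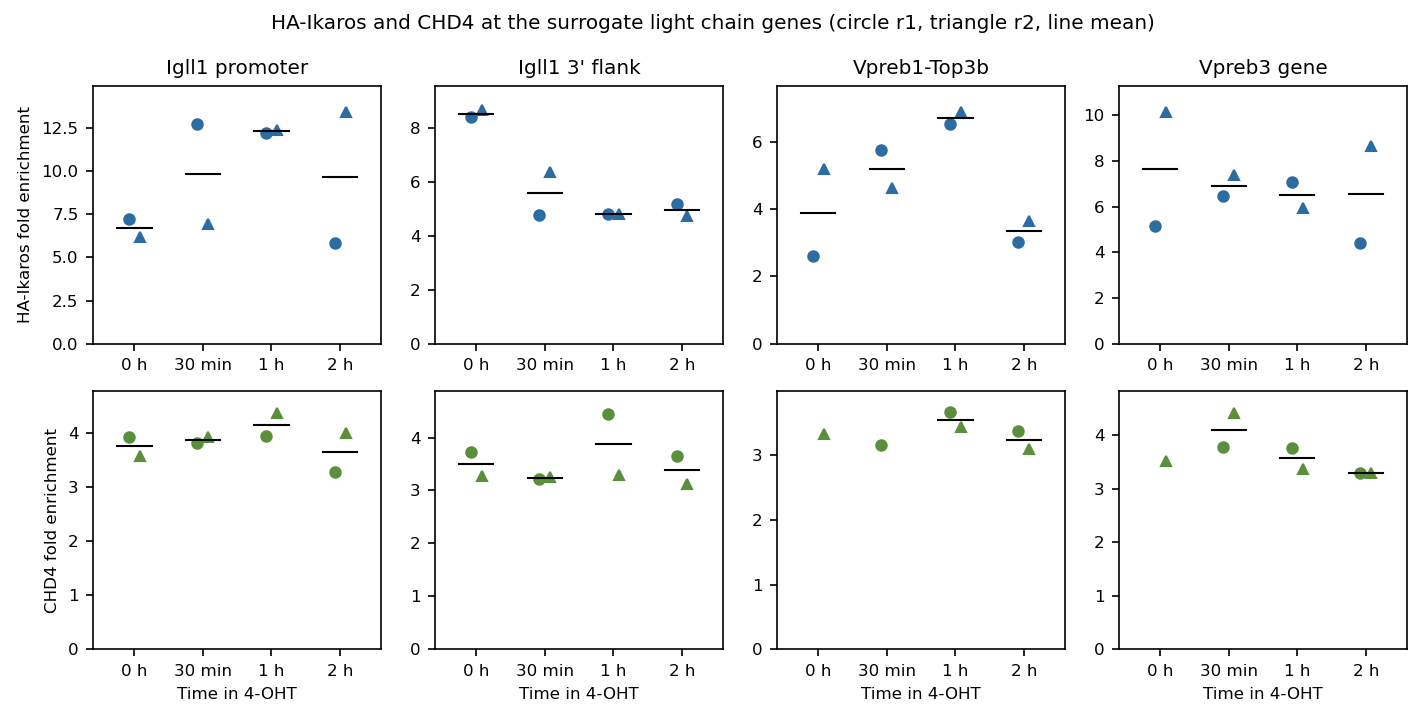
Fold enrichment of HA-Ikaros (upper row) and CHD4 (lower row) at 4 regions by time in 4-OHT; circles are replicate 1, triangles replicate 2, lines the mean where both were called, and a missing point means no peak was called. Ikaros at the Igll1 3′ flank is highest in the 2 libraries of 0 h, while CHD4 stays between 3.10 and 4.45 wherever it was called.

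The Vpreb1-Top3b region (chr16:16869720-16871986) had Ikaros folds of 2.61 and 5.19 at 0 h, 5.75 and 4.64 at 30 min, 6.53 and 6.88 at 1 h, and 3.04 and 3.64 at 2 h. The 1 h libraries were the highest of the 8 and the 2 h libraries were among the lowest 3. That order held by fold only: by pileup per coverage the values were 5.41 and 7.35 at 0 h, 7.88 and 8.58 at 30 min, 8.73 and 12.99 at 1 h, and 5.96 and 11.8 at 2 h. The log2 change at 2 h was -0.06 by fold (adjusted p = 0.942) and 0.36 by pileup (limma adjusted p = 0.328). The summit lay between -1809 and -1369 bp from the coding TSS of Vpreb1 in every library but 2 h replicate 1, where it lay at -561 bp. Ikaros was called within 1 kb of that coding TSS in 3 libraries, all after 4-OHT. This depends on the TSS used: the distal Vpreb1 TSS (chr16:16870843) lay under an Ikaros peak in both 0 h libraries (chr16:16870667-16870982 and chr16:16870591-16871083). At Vpreb3, Ikaros was called within 1 kb of the coding TSS in 7 libraries, all but 0 h replicate 1. That region (chr10:75947687-75952252) had folds of 5.16 and 10.2 at 0 h and 4.43 and 8.64 at 2 h, and its highest summit lay downstream of the gene. A second region over Gm867, Chchd10 and the 5′ end of Mmp11 (chr10:75935595-75938681) had 6.45 and 10.5 at 0 h and 6.49 and 7.36 at 2 h. In both, the 0 h and 2 h libraries overlapped.

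At Vpreb2, Ikaros was called within 1 kb of the TSS in 1 library, 0 h replicate 1, with a fold of 4.31. A distal Ikaros region at -10703 bp from the Vpreb2 TSS (chr16:17969407-17969842) was called in replicate 2 of 30 min, 1 h and 2 h, with folds of 4.69, 6.43 and 4.87, and in no replicate 1. It lay within the intergenic H3K27ac region named above. Since it was called in only 1 replicate of each time, it does not count as gained.

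By fold, 0 of the 5 Ikaros regions called in all 8 libraries passed at 2 h, where 4.69% of 2305 regions were called lower and 0.998% higher, and 469 had an unadjusted p below 0.05. The adjusted p of the 5 ran from 0.243 to 0.942. Of the 17 Ikaros regions, 1 was gained and 0 were lost between 0 h and 2 h, beside 12.0% gained and 3.59% lost over all Ikaros regions. The gained region was the Ppm1f promoter (chr16:16895804-16896377), called in 1 h replicate 1 with a fold of 8.01 and at 2 h with 3.92 and 6.16. Ppm1f encodes a protein phosphatase and is the neighbour of Top3b, not a surrogate light chain gene. The 0 h Ikaros libraries were the deepest, with 3.13 and 3.59 fragments per base beside 1.98 to 2.85 at later times, and the part of depth in gained and lost regions was not tested.

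CHD4 and Ikaros regions overlapped at these loci. Of the 17 Ikaros regions, 11 shared at least 1 bp with a CHD4 region, beside 54.6% of all Ikaros regions, and 15 with an H3K27ac region, beside 87.4%. All 5 that were called in all 8 Ikaros libraries overlapped both, as did 95.8% and 98.9% of such regions in the whole series, so the overlap is close to the background. CHD4 at the Igll1 promoter (chr16:16863263-16867525) had folds of 3.92 and 3.58 at 0 h, 3.82 and 3.93 at 30 min, 3.95 and 4.36 at 1 h, and 3.28 and 4.01 at 2 h. The times overlapped, and the log2 change at 2 h was 0.06 (SE 0.127, adjusted p = 0.959). The simulation recovered 98% of changes of 1 log2 unit for CHD4. All CHD4 folds near the members lay between 2.95 and 4.45, a narrower span than 1 log2 unit. Reach for smaller changes was not tested, so a small change at Igll1 could have been missed.

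The CHD4 region in the 3′ flank of Igll1 (chr16:16855265-16858991) was also called in all 8 libraries, with folds between 3.13 and 4.45. The 2 CHD4 regions tested gave 0 calls at 2 h, where 0.138% of 723 regions were called higher and 0 lower by limma, and 53 had an unadjusted p below 0.05. The Vpreb1-Top3b CHD4 region (chr16:16869227-16871376) was called in 6 libraries and the Vpreb3 region (chr10:75946436-75951598) in 7, with 0 h replicate 1 missing from both. That library held the fewest CHD4 peaks of the 8, 2488 beside 3369 to 9593. At the Vpreb2 promoter CHD4 was called only in the libraries of 0 h, at places that do not overlap (chr16:17980421-17980680 in replicate 1 and chr16:17979992-17980284 in replicate 2), with folds of 3.34 and 3.25. Of the 12 CHD4 regions, 1 was gained and 0 were lost, beside 5.30% and 1.45% of all. The gained one was again the Ppm1f promoter (chr16:16895130-16897366), called in all 6 libraries after 4-OHT with folds of 2.95 to 3.63 and in neither 0 h library. With peaks limited to a fold or a −log10 q of at least 3, 0 CHD4 regions were gained.

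**Figure D5:**
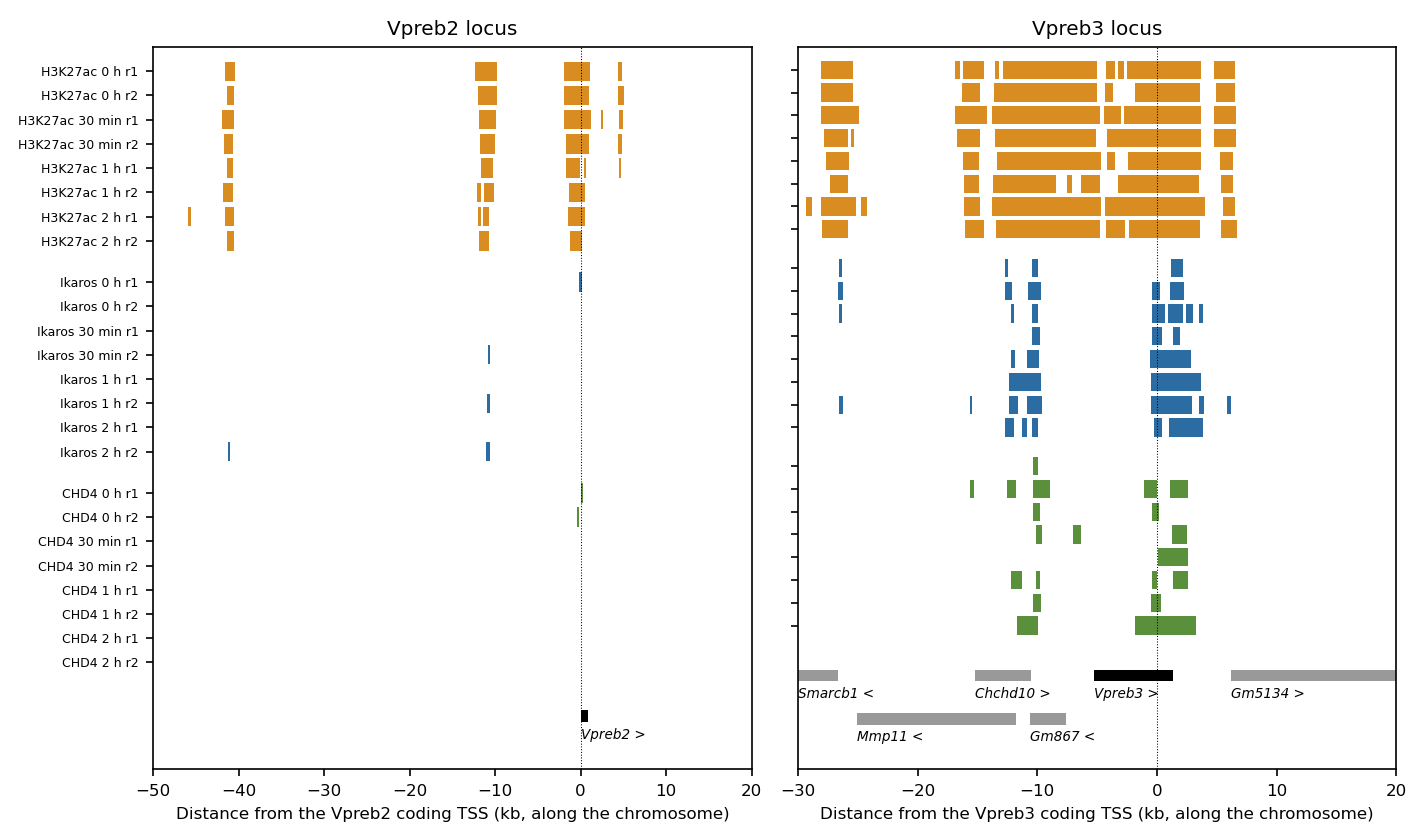
Peaks at the Vpreb2 (left) and Vpreb3 (right) loci, with distance from the coding TSS in kb on the horizontal axis and 1 line per library in the same order on both sides; bars are called peaks, and genes stand below (black for members, < and > for strand). At Vpreb2, Ikaros and CHD4 peaks are few, while at Vpreb3 they cluster at 2 places inside broad H3K27ac.

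Igll1 and Vpreb1 each had 6 Ikaros, 5 CHD4 and 5 H3K27ac regions within 50 kb, which are the same regions. Vpreb3 had 8, 5 and 11, and Vpreb2 had 3, 2 and 6. The median over protein-coding genes was 2 for Ikaros, 1 for CHD4 and 2 for H3K27ac. Of these genes, 82.6% had fewer Ikaros regions than Igll1 and 59.4% fewer than Vpreb2. H3K27ac was called within 1 kb of the coding TSS of all 4 genes in all 8 libraries, and CHD4 at Igll1 in 8, Vpreb3 in 6, Vpreb1 in 4 and Vpreb2 in 2. Of 20319 genes with a coding TSS, 42.5% had H3K27ac there in all 8 libraries, 4.75% Ikaros and 0.536% CHD4. The H3K27ac count is thus shared by many genes. Igll1 was the only one of the 4 with Ikaros and CHD4 within 1 kb in every library.

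The genes most like each member were sought over the 24 lists by the fold percentile of the highest peak within 5 kb of a TSS. For Igll1 they were Rai1, B3gnt7 and Pgls, with mean absolute differences of 5.57 to 5.82 percentile points. For Vpreb1 they were Pgls, Rai1 and Csk (5.57 to 5.95), and since Igll1 and Vpreb1 lie close together their nearest peaks are partly the same. For Vpreb3 they were Dusp6, Cirbp and Sema4d (7.34 to 7.42). Vpreb2 had a peak within 5 kb in 11 lists, and Slc12a9, Gripap1 and Man2b2 came closest (5.26 to 6.19).

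The other genes of the pathway are given beside these values. The list of 10 pre-B cell receptor partners and signalling genes (Ighm, Cd79a, Cd79b, Syk, Blnk, Btk, Lyn, Lat2, Plcg2 and Bank1) had 41 H3K27ac regions that could be tested. By fold, 0 were called in either direction at 2 h. By pileup, 1 was lower, near the adaptor gene Blnk (-1.03, SE 0.153, limma adjusted p = 0.00154). By pileup 6 of the 41 were higher, beside 11.1% of all regions higher and 7.10% lower, near the kinase gene Syk (2 regions), Bank1 (2), Plcg2 and Cd79a, which encodes a signalling chain of the receptor (0.86, SE 0.164, adjusted p = 0.0052). The median over the 41 was 0.13, beside -0.15 over the 10 regions of the surrogate light chain genes and 0.07 over all regions. The difference between the lists was not tested.

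The list of 15 transcription factors of early B cells had 1 H3K27ac region lower by fold, near Lef1 (-1.40, SE 0.272, adjusted p = 0.0405), and 1 higher, near Tcf12 (1.50, SE 0.280, adjusted p = 0.0346), out of 73, beside 0.238% lower and 0.190% higher over all regions. By pileup 7 of 72 were lower, near Ikzf1, Irf8, Lef1 and Runx1, and 12 higher, beside the same 7.10% and 11.1%. The higher were 4 near Tcf12 (up to 1.48, SE 0.172, adjusted p = 0.000507), 2 near Ebf1, a factor that activates Igll1 and Vpreb1 (up to 1.39, SE 0.188, adjusted p = 0.000956), 2 near Myb, and 1 each near Ikzf1, Sox4, Spib and Tcf3. Ikzf1 thus had regions in both directions. Ikaros by fold was lower at 2 of the 25 regions tested, near Irf8 and Tcf12, and at 0 of the 12 of the signalling list, beside 4.69% of all Ikaros regions. By pileup, where 12.6% of all Ikaros regions were lower and 8.33% higher, 6 of the 25 were lower (near Ikzf1, Ikzf3, Irf8 and Tcf12) and 6 higher (near Ebf1, Irf8, Pax5, Sox4 and Spi1), and of the 12, 1 was lower (Cd79a) and 3 were higher (Cd79a, Lyn and Plcg2). CHD4 passed at 0 of 14 and 0 of 7 regions in these lists.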

How the data were processed

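ChIP-seq was performed for HA-Ikaros, CHD4 and H3K27ac in 24 libraries (8 per target), and 8 input libraries gave no peak list of their own. Per the submitters' notes and the methods, paired 41 bp reads were aligned to mm10 with Bowtie2 2.4.2, duplicates were marked with Picard 2.23.7, and peaks were called per library with MACS2 2.2.7.1 against input (broad peaks for CHD4). A blacklist is named for the coverage tracks. Whether one was applied to the peak lists, the settings for 30 min and the input used for each library are not given in the sources used here. The deposited peak lists hold, as the authors' peak caller wrote them, a score, the fold enrichment (a ratio over local background), −log10 p-value and −log10 q-value. The Ikaros and H3K27ac lists also give the summit, whereas the CHD4 lists give none and their fold is a mean over the broad peak.

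Peaks of the 8 lists of a target were merged where they shared 1 bp, and the highest fold per library was taken. Regions called in all 8 libraries were tested on log2 fold, centred on the library median, with limma 3.58.1 (4 times, contrasts to 0 h, no covariate) and Benjamini-Hochberg adjustment over all regions, at 0.05. Since every region had a called peak, no pseudocount was needed. Gained or lost means called in both libraries of one time and in neither of the other. The pileup was solved from fold and p (95.7% of 327 simulated peaks came out right) and divided by the coverage recovered with it. The simulated peaks had smaller −log10 p than the highest peaks of the Igll1-Vpreb1 (85.8 to 370), Vpreb3 and Chchd10-Gm867 regions of H3K27ac. Recovery at peaks as strong as these was not checked. Coverage was 1.98 to 3.59 fragments per base for Ikaros and 3.75 to 4.34 for H3K27ac. For CHD4 the depth is unknown. The limma test on fold was run on simulated data for each target, and the test on pileup was not. With 2 libraries against 2, an exact permutation test of a single value cannot go below p = 0.333, so none was used. Genes were taken from GENCODE M21 on GRCm38.p6, and promoters from RefSeq.

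The rule for names took the 4 members with every region within 50 kb of a TSS, neighbours where a region lay nearest to them, genes of the 2 context lists with a region that passed the test, and the 3 genes most like each member. By that rule 4 summit windows were due, of which the one in the untranslated region of Top3b is given by its counts only, and no protein table was used here. The regions followed by library in the plots were chosen after their values were seen. The members and lists were chosen with earlier results of these data known. The pileup comparison was planned, but its versions without centring, with a replicate term and without single libraries were added after seeing the data. The pattern of domain splitting was also chosen after its values were seen. Identical replicate numbers did not pair libraries (correlations of deviations between -0.05 and 0.18).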

Additional observations from a re-analysis of the deposited data

How the results depend on the processing

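With 2 libraries per time and little reach of the fold test for H3K27ac, a missed threshold does not show that a level stayed the same, and where depth is unknown (CHD4) a missing peak has no lower limit. The members' fold counts at 2 h (0 of 5 Ikaros, 0 of 2 CHD4 and 0 of 10 H3K27ac regions, in each direction) were 0 under every alternative that kept fold and left a region to test. At −log10 q of at least 3, 0 CHD4 regions near the members could be tested, so that count says nothing. By pileup the H3K27ac count was 4, 5 without centring, 4 with a replicate block, and 1 to 4 without single libraries.

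Over all Ikaros regions (108 lower, 23 higher), 4 were higher without centring, 39 with the replicate block, and 0 were lower and 0 higher by percentile rank. By pileup 291 were lower and 192 higher, 143 and 69 without centring, and 321 and 240 with the block. Without single libraries the ranges were 29 to 110 lower and 1 to 24 higher by fold, and 160 to 305 and 48 to 208 by pileup. Over all CHD4 regions (0 lower, 1 higher by limma, 53 at unadjusted p below 0.05), 0 were higher without centring, by percentile rank and at −log10 q of at least 3, 1 was lower with the replicate block and at that q, and 1 was lower and 2 higher by mean fold. Without single CHD4 libraries 0 to 1 were higher. Over all H3K27ac regions (35 lower, 28 higher), 364 and 4 passed without centring, 19 and 5 by percentile rank, 8 and 4 by mean fold, and 0 to 21 and 0 to 12 without single libraries. By pileup 1035 and 1618 passed, 3835 and 162 without centring, 1040 and 1650 with the block, and 379 to 1048 and 544 to 1642 without single libraries.

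The replicate block changed no call near the members by fold.

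Among the 2 h changes carried through the alternatives, these changed sign. Ikaros at the Igll1 promoter (0.49 by fold) was -0.17 by pileup, -0.13 without centring, -0.17 with the block and -0.59 to 0.24 without single libraries, and -0.005 to 0.99 by fold without single libraries (lowest without 2 h replicate 2). CHD4 at the Igll1 promoter (0.06) was -0.047 without centring and -0.052 to 0.17 without single libraries. H3K27ac at Vpreb3 (-0.34) was 0.33 by mean fold and -0.73 to 0.044 without single libraries (highest without 0 h replicate 1). Over 30 min, 1 h and 2 h together, fold and pileup differed in sign in 4 of 15 Ikaros and 3 of 30 H3K27ac values near the members (2 of 5 and 0 of 10 at 2 h). The cause was not tested.

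Within 20 kb of a TSS the Ikaros regions were 10 (17 at 50 kb) and the H3K27ac regions 11 (22), and at −log10 q of at least 3 the CHD4 regions were 5 (12). The gained CHD4 region was not called as such at −log10 q or fold of at least 3 (0 gained). Without single libraries, gained and lost regions numbered 1 to 4 and 0 to 1 for Ikaros, 1 to 3 and 0 to 4 for CHD4, and 0 to 4 and 1 to 2 for H3K27ac, since 1 library then stands for a time.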
